A study of Oryctolagus cuniculus with 9 samples.

Results

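HMOX1 and 9 genes of the NRF2 antioxidant system were followed through 9 mRNA-seq libraries of the line HA-VSMC. The genes were taken by symbol: the regulators NFE2L2, KEAP1 and BACH1, and the enzymes HMOX1, GCLC, GCLM, TXNRD1, SRXN1, NQO1 and AKR1B10. All 10 were present among the 19291 genes of the deposited tables, and all 10 were among the 12324 genes that passed the filter on low counts.

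The series asked which pathway links estrogen to adenomyosis, the growth of endometrium into uterine muscle. It holds 3 control libraries, 3 libraries of cells given β-estradiol at 50 nM and 3 at 250 nM. Treatment lasted 48 h in serum-containing RPMI medium, with estradiol taken from a DMSO solution. The labels give 1 line for all groups, with no genotype or allele. They name no vehicle for the controls, whose treatment tag reads estrogen with WT as the concentration, and the treatment protocol names only 250 nM. Groups therefore follow the sample titles. The labels do not say that replicates were separate cultures, so p-values set group differences against the spread between these libraries, which may be technical. The organism given is the rabbit. The same line name is used elsewhere for human aortic smooth muscle cells, and the species was not checked here, since reads were not used. If the reads came from another species than the gene models, levels of different genes could not be compared as they stand.

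NRF2, the product of NFE2L2, is a transcription factor that binds antioxidant response elements together with small Maf proteins. KEAP1 holds NRF2 in the cytoplasm and presents it for degradation, and electrophiles and oxidants that modify KEAP1 cysteines let NRF2 accumulate. BACH1 occupies many of the same elements as a repressor and leaves them when it binds heme, which makes HMOX1 a gene with both an activating and a repressing input. NRF2 is controlled largely at the level of the protein, so the NFE2L2 transcript does not report how much active factor a cell holds. In vascular smooth muscle, HMOX1 is known for limiting oxidative injury and proliferation.

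Libraries held 54718407 to 72274464 deposited count units. About 4 units were taken as 1 fragment, because low values piled up at multiples of 4. On that assumption these totals correspond to about 13679602 to 18068616 fragments. For 1 gene between libraries, values are TMM-scaled counts adjusted to library size (CPM), and between genes they are the deposited FPKM. The summed FPKM of smooth muscle markers was 2626 to 2866 over the 9 libraries, with 8 of 10 listed markers in the table. ACTA2 averaged 1286 FPKM, TPM2 998 FPKM, CALD1 424 FPKM and SMTN 27.8 FPKM. MYH11, the smooth muscle myosin heavy chain, averaged 5.18 FPKM, LMOD1 0.450 FPKM and MYLK 0.443 FPKM, and DES was at 0. Fibroblast markers, given by group below, summed to 3171 to 3580 FPKM over the 9 libraries, above the smooth muscle markers. Leukocyte and macrophage markers summed to 0.0427 to 0.310 FPKM, with CD163 and ITGAM at 0. Endothelial markers (KDR at 0) summed to 0.619 to 1.60 FPKM, and epithelial markers (EPCAM and ESRP1 at 0) to 1.93 to 3.37 FPKM. The receptors for estradiol were listed at low levels, with ESR1 at 0.226 and ESR2 at 0.211 FPKM on average. GPER1 was at 0 in all libraries other than 50 nM replicate 1 (0.221 FPKM) and 250 nM replicate 1 (0.110 FPKM). At about 4 units per fragment, these values came from about 3.75 and 2 fragments.

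HMOX1 was the one gene of the 10 that changed by edgeR's adjusted test. It was higher at 50 nM estradiol, by about 1.29 times, and at 250 nM it lay close to the control level. BACH1, TXNRD1, GCLC and SRXN1 likewise had their highest mean at 50 nM without passing edgeR's test, and DESeq2 called BACH1 and TXNRD1 as well as HMOX1. NQO1, AKR1B10 and GCLM had their highest means in the controls and lower means at both concentrations, also without passing. NFE2L2 and KEAP1 differed little between groups.

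**Figure D1:**
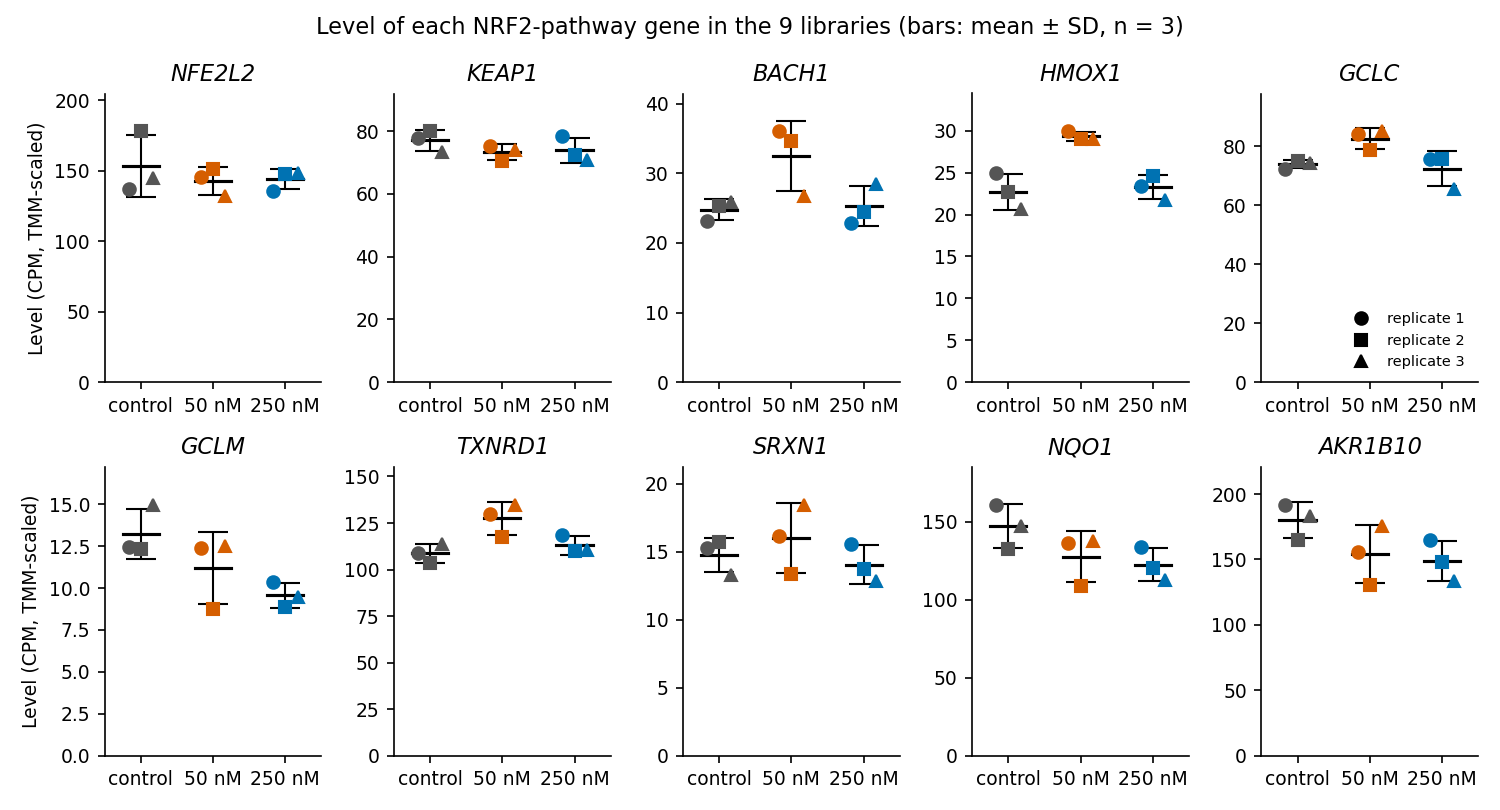
CPM of each of the 10 genes in every library, by group, with points for the 3 replicates and bars for the mean ± SD. In HMOX1, BACH1, GCLC and TXNRD1 all 3 libraries at 50 nM lie above all 3 controls, as in 8.88% of all tested genes. In AKR1B10 and GCLM all 3 libraries at 250 nM lie below all 3 controls, as in 7.76% of all tested genes.

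By FPKM, which allows for transcript length and rests on the gene models fitting the species of the cells, the genes spanned from NQO1, the quinone reductase, at a mean of 152 over the 9 libraries to GCLM at 9.87. NQO1 and AKR1B10 (140 FPKM) stood above 96.3% and 96.0% of the genes tested. KEAP1 followed at 36.8, GCLC at 29.6, TXNRD1 at 28.1, SRXN1 at 23.2, NFE2L2 at 17.7, HMOX1 at 14.7 and BACH1 at 11.0 FPKM. HMOX1 stood above 62.9% of tested genes and GCLM above 52.2%. Only the steps from AKR1B10 to KEAP1 and from KEAP1 to GCLC separated neighbours whose ranges over the 9 libraries did not overlap. Within libraries the order was steadier. Each gene exceeded the next in 9 of 9 libraries, other than GCLC over TXNRD1 and NFE2L2 over HMOX1 (8 of 9 each) and BACH1 over GCLM (5 of 9). NFE2L2 had many counts for its FPKM, with 4.84 times as many counts per FPKM unit as HMOX1, so it ranked higher by CPM (147 on average) than by FPKM.

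Among the regulators, NFE2L2 gave 137, 178 and 145 CPM in the controls, 145, 151 and 132 CPM at 50 nM, and 135, 148 and 148 CPM at 250 nM. Its highest value was control replicate 2, and the groups overlapped in every comparison. The log2 fold change was -0.10 ± 0.09 (SE) at 50 nM and -0.09 ± 0.09 at 250 nM against control, with adjusted p of 0.651 at 50 nM by edgeR's quasi-likelihood test. Without control replicate 2 the estimate at 50 nM was 0.02. KEAP1, the adaptor that targets NRF2 for degradation, was the steadiest of the 10. Its highest library exceeded its lowest by 1.14 times, against 1.45 times for HMOX1 and 1.71 times for GCLM. KEAP1 gave 77.8, 80.0 and 73.4 CPM in the controls, 75.4, 70.3 and 74.0 at 50 nM, and 78.4, 72.4 and 70.9 at 250 nM. At 50 nM it had a log2 fold change of -0.07 ± 0.06 (adjusted p = 0.648, edgeR).

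BACH1, the heme-sensing repressor, gave 23.1, 25.3 and 25.9 CPM in the controls. At 50 nM it gave 36.0, 34.7 and 26.8 CPM, and at 250 nM 22.9, 24.4 and 28.4 CPM. All 3 libraries at 50 nM lay above the controls, although replicate 3 did so by a small margin and lay below the highest library at 250 nM. At 50 nM against control it had a log2 fold change of 0.39 ± 0.11, the largest of the 10 genes, which missed the threshold (adjusted p = 0.0622, edgeR). At 250 nM it was 0.03 ± 0.11 against control and -0.36 ± 0.11 against 50 nM (adjusted p = 0.325). The call depended on the setting: DESeq2, which called 5.70% of all genes at 50 nM, gave an adjusted p of 0.0131, and edgeR without 50 nM replicate 3 gave 0.51 and an adjusted p of 0.00592.

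HMOX1, the inducible heme oxygenase that opens heme to biliverdin, iron and carbon monoxide, gave 24.9, 22.7 and 20.6 CPM in the controls. At 50 nM estradiol it gave 29.9, 29.0 and 29.0 CPM, and at 250 nM 23.4, 24.6 and 21.8 CPM. Every library at 50 nM exceeded every other library, while the controls and the libraries at 250 nM overlapped. The means were 22.7 ± 2.15 (SD, n = 3) in controls, 29.3 ± 0.552 at 50 nM and 23.3 ± 1.41 at 250 nM. In deposited FPKM the values were 15.0, 13.4 and 12.4 in controls, 17.3, 16.5 and 16.9 at 50 nM, and 13.7, 14.2 and 12.6 at 250 nM, in the same arrangement.

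HMOX1 rose at 50 nM against control by 0.37 ± 0.08 on the log2 scale (95% interval 0.20 to 0.54), with an adjusted p of 0.0194 over all 12324 genes by edgeR's quasi-likelihood test. That made 1 of the 10 genes called, with 3.25% of all tested genes called in that comparison and 1.55% called as higher. At 250 nM the difference from control was 0.03 ± 0.08 (95% interval -0.14 to 0.20, adjusted p = 0.967). From 50 nM to 250 nM the log2 fold change of HMOX1 was -0.33 ± 0.08 (95% interval -0.50 to -0.16), with an adjusted p of 0.146 by edgeR and 0.0219 by DESeq2. The F test for any difference among the 3 groups gave HMOX1 an adjusted p of 0.0311, and it called 1.86% of all genes. With each library left out in turn, the F test called 1 of the 10 genes in 3 of 9 refits and 0 in the others. In bulk RNA, more RNA per cell and more cells of a kind that express the gene cannot be told apart.

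The values behind HMOX1 came from 345.5 to 462 fragments per library. Its coefficient of variation was 9.44% in controls and 6.06% at 250 nM. At 50 nM it was 1.88%, below the 4.86% that counting error alone gives at these fragment numbers. On that assumption the closeness of these 3 libraries is tighter than the depth can resolve. The call did not hold in all refits. The log2 fold change stayed between 0.30 and 0.44 when each library was left out in turn, but the adjusted p reached 0.112 without control replicate 3, 0.0767 without 50 nM replicate 1, 0.0556 without 50 nM replicate 2 and 0.0516 without control replicate 2. In limma fits to the deposited FPKM, made without TMM factors, it was 0.0622 to 0.0982. The median log2 fold change of all genes was -0.0520 to -0.0245 in those fits.

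**Figure D2:**
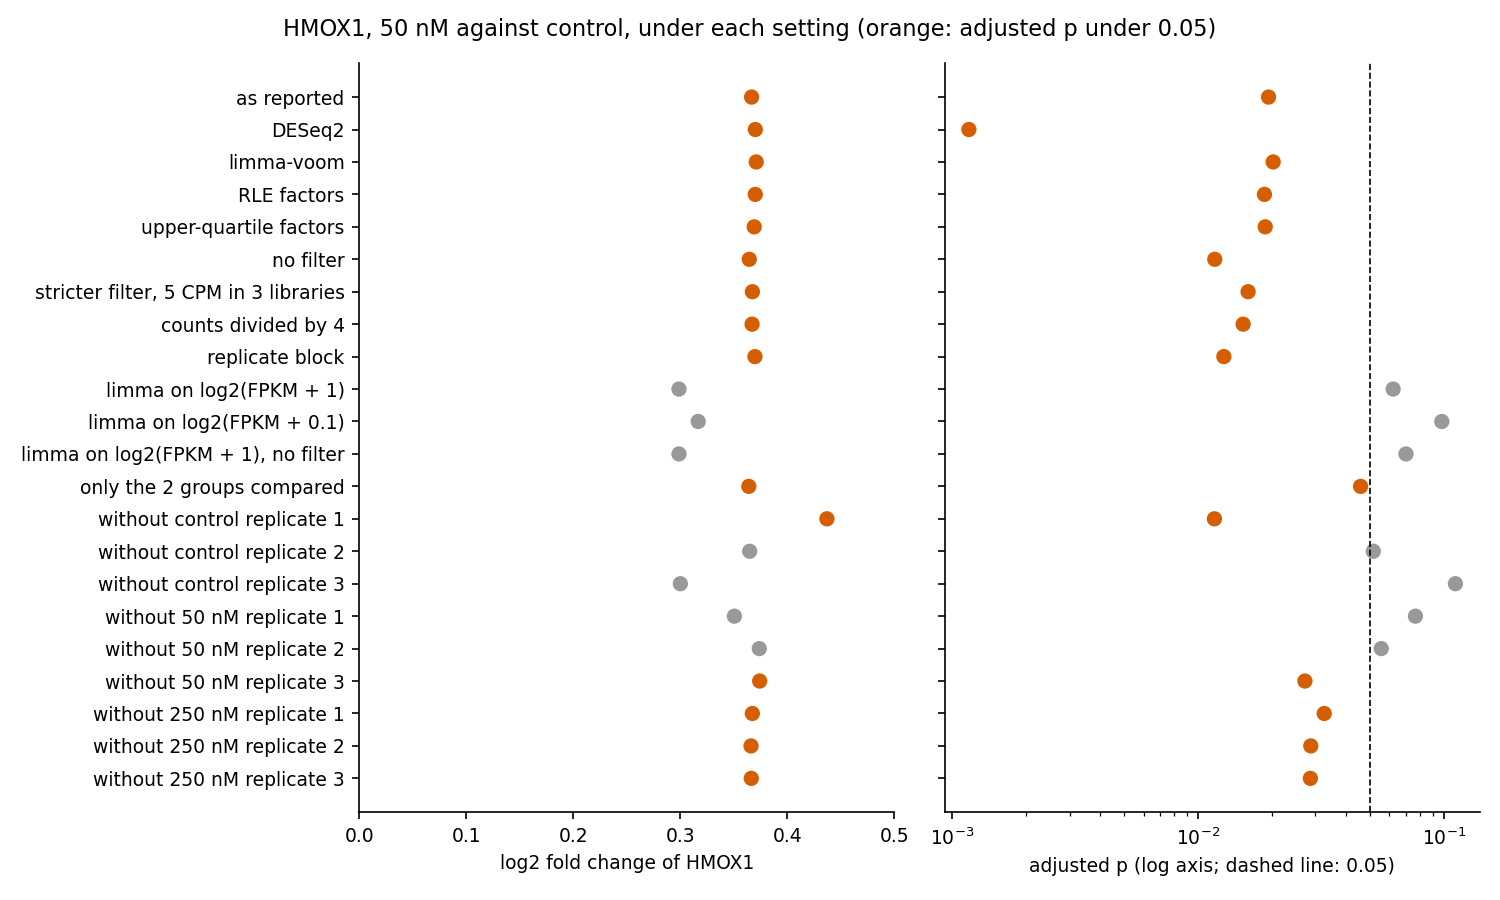
Log2 fold change (left) and adjusted p on a log axis (right) of HMOX1 at 50 nM against control, as reported and under each alternative setting, with orange points for an adjusted p under 0.05. The estimate stays between 0.30 and 0.44 throughout, and the adjusted p passes 0.05 in the FPKM fits and without any of 4 libraries.

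HMOX2, the constitutive heme oxygenase, was more abundant than HMOX1, at 64.7 FPKM on average, and its log2 fold change at 50 nM was 0.04 ± 0.07 (adjusted p = 0.870, edgeR). The biliverdin reductases that act after heme oxygenase had log2 fold changes at 50 nM of 0.13 ± 0.12 for BLVRA and -0.06 ± 0.10 for BLVRB (adjusted p of 0.692 and 0.858, edgeR). HMOX2, BLVRA and BLVRB were singled out after their values were seen.

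The 2 subunits of glutamate-cysteine ligase, the rate-limiting enzyme of glutathione synthesis, had estimates of opposite sign at 50 nM. Neither passed in any comparison by edgeR, and the difference between them was not tested. GCLC, the catalytic subunit, gave 72.3, 75.1 and 74.2 CPM in controls, 84.1, 78.6 and 85.1 CPM at 50 nM, and 75.8, 75.7 and 65.5 CPM at 250 nM. All libraries at 50 nM lay above all others, as for HMOX1, but the log2 fold change of 0.16 ± 0.07 against control did not pass (adjusted p = 0.238, edgeR). GCLM, the modifier subunit that raises the catalytic efficiency of GCLC, gave 12.4, 12.3 and 15.0 CPM in controls, 12.4, 8.74 and 12.5 CPM at 50 nM, and 10.3, 8.88 and 9.44 CPM at 250 nM. At 50 nM its log2 fold change was -0.24 ± 0.13 (adjusted p = 0.415), and -0.0892 without replicate 2 of that group or -0.144 without control replicate 3. The 3 libraries at 250 nM lay below all controls. Its estimate there, a log2 fold change of -0.47 ± 0.13 (95% interval -0.75 to -0.19), was the farthest from 0 of the 10 genes in any comparison and did not pass either (unadjusted p = 0.00294, adjusted p = 0.212, edgeR).

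The ratio of GCLC to GCLM within a library does not depend on the scaling between libraries. In FPKM it was 2.60, 2.73 and 2.21 in the controls, 3.03, 4.02 and 3.05 at 50 nM, and 3.28, 3.81 and 3.10 at 250 nM. All 6 treated libraries lay above all 3 controls, with means of 2.51 ± 0.267 (SD, n = 3), 3.36 ± 0.566 and 3.40 ± 0.370. The ratio was formed after these values were seen, and it was not tested. For 1 treated group alone against the controls, 3 libraries against 3, the smallest two-sided exact permutation p is 0.1.

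TXNRD1, the cytosolic thioredoxin reductase, gave 109, 104 and 114 CPM in controls, 130, 118 and 135 CPM at 50 nM, and 119, 110 and 111 CPM at 250 nM. All libraries at 50 nM exceeded the controls, and replicate 2 at 50 nM fell just below replicate 1 at 250 nM. Against control, its log2 fold change was 0.23 ± 0.06 at 50 nM (95% interval 0.09 to 0.37, adjusted p = 0.0674, edgeR) and 0.06 ± 0.06 at 250 nM. DESeq2 called TXNRD1 at 50 nM with an adjusted p of 0.0125, and edgeR called it without 50 nM replicate 2 (0.28, adjusted p = 0.0372). SRXN1, sulfiredoxin, which restores over-oxidised peroxiredoxins, ranged from 12.8 to 18.5 CPM with groups that overlapped in every comparison. It had log2 fold changes of 0.11 ± 0.12 at 50 nM and -0.07 ± 0.12 at 250 nM.

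AKR1B10, an aldo-keto reductase that reduces aldehydes including retinal, gave 192, 165 and 183 CPM in controls, 156, 131 and 175 CPM at 50 nM, and 165, 148 and 134 CPM at 250 nM. The controls and the libraries at 50 nM overlapped, and those at 250 nM all lay below the lowest control, replicate 1 by a very small margin. The means were 180 ± 13.6 (SD, n = 3), 154 ± 22.3 and 149 ± 15.5 CPM. The log2 fold change was -0.23 ± 0.10 at 50 nM (adjusted p = 0.258) and -0.28 ± 0.10 at 250 nM (95% interval -0.48 to -0.07, adjusted p = 0.374, edgeR). The value at 50 nM was -0.122 without replicate 2 of that group, and leaving out each library gave -0.331 to -0.122. AKR1B1, its close relative, had -0.13 ± 0.07 at 50 nM and -0.10 ± 0.07 at 250 nM, and reads that fit both genes could be shared between them.

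NQO1 gave 161, 133 and 147 CPM in controls, 136, 109 and 138 CPM at 50 nM, and 134, 120 and 113 CPM at 250 nM, so the lowest control overlapped both treated groups. Its log2 fold change was -0.20 ± 0.09 at 50 nM and -0.27 ± 0.09 at 250 nM (adjusted p of 0.300 and 0.374, edgeR). Without replicate 2 at 50 nM the first value was -0.101, without control replicate 1 it was -0.134, and leaving out each library gave -0.272 to -0.101. At 50 nM, replicate 2 was the lowest library of its group for AKR1B10, NQO1, GCLM, SRXN1, GCLC, TXNRD1 and KEAP1 alike, whether the group mean was above or below the controls. Control replicate 1 was the highest control for AKR1B10 and NQO1.

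**Figure D3:**
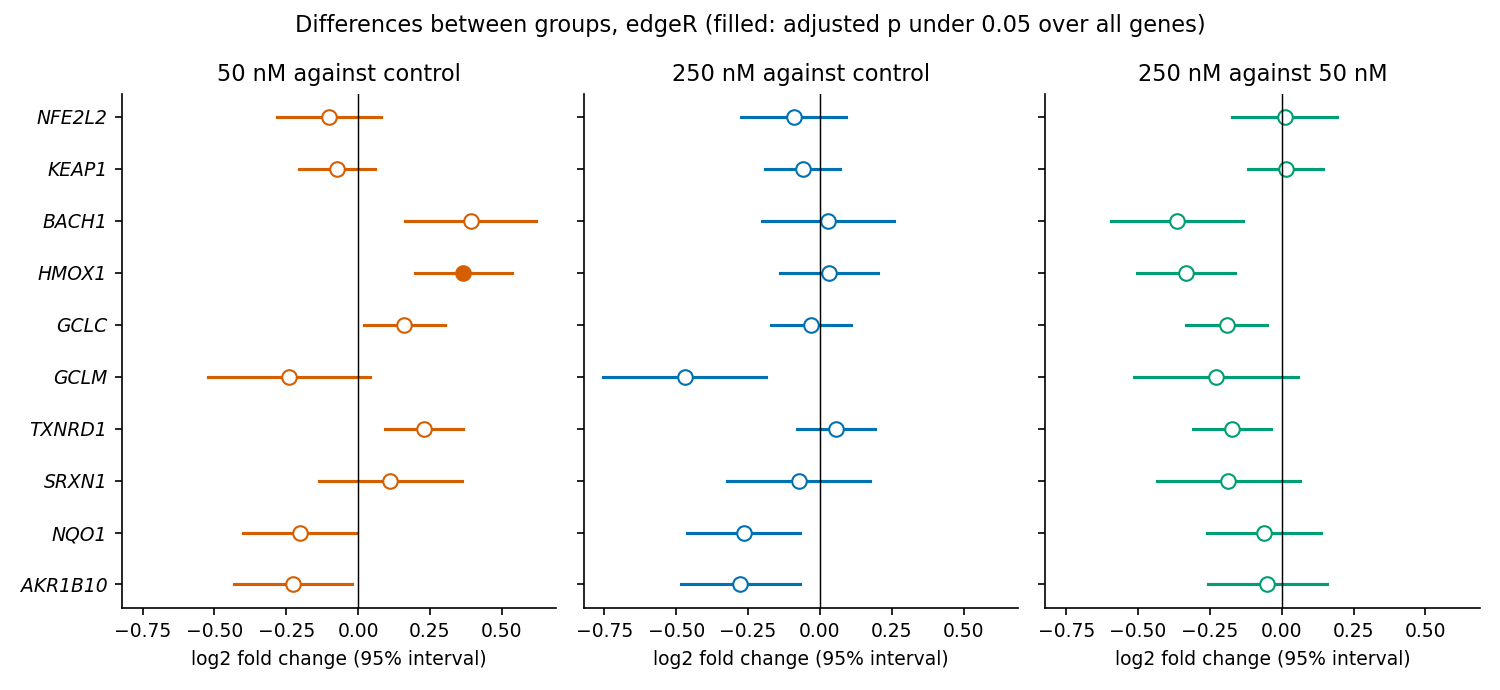
Log2 fold change of each of the 10 genes with its 95% interval in the 3 comparisons (edgeR), filled where the adjusted p over all tested genes is under 0.05. HMOX1 at 50 nM against control is the only filled point. The intervals of BACH1, HMOX1, GCLC and TXNRD1 lie right of 0 in the first panel and left of 0 in the third. SRXN1 has the same signs, with intervals that cross 0.

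At 50 nM against control, 5 of the 10 genes had estimates above 0 and 5 below. The median log2 fold change was 0.02, against -0.00 for all tested genes, and the median size without regard to sign was 0.22, against 0.10. An unadjusted p under 0.05 was reached by 6 of the 10, of which BACH1, HMOX1, GCLC and TXNRD1 were higher and NQO1 and AKR1B10 lower. Among all tested genes 15.6% reached it, 7.44% higher and 8.17% lower. The libraries did not overlap with the controls for 4 of the 10 genes, all higher, against 19.0% of all genes in either direction and 8.88% in that direction.

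At 250 nM against control, 0 of the 10 genes were called by edgeR, by DESeq2 or by limma-voom, with 0.308% of all genes called by edgeR and 1.14% by DESeq2. An unadjusted p under 0.05 was reached by 3 genes, NQO1, GCLM and AKR1B10, all lower, against 8.67% of all genes and 4.71% in that direction. The groups did not overlap for GCLM and AKR1B10, both lower, against 15.5% of all genes and 7.76% in that direction. The median log2 fold change was -0.07, with 7 of 10 estimates below 0, and the median size was 0.067, against 0.083 for all genes.

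Between the concentrations, 0 of the 10 were called by edgeR or limma-voom and 1 by DESeq2 (HMOX1, lower at 250 nM), with 0.325% of all genes called by edgeR and 0.803% by DESeq2. BACH1, HMOX1, GCLC and TXNRD1 had an unadjusted p under 0.05, all lower at 250 nM, against 5.68% of all genes and 2.67% in that direction. The groups did not overlap for HMOX1 and GCLC, both lower, against 11.5% of all genes and 5.57% in that direction. The median was -0.18, with 8 of 10 estimates below 0, and the median size was 0.18, against 0.069. The comparisons share libraries, both through the controls and through the 50 nM group, so the same 4 genes in the first and the last do not count as a repeat.

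Likeness between genes was measured as the mean absolute difference between their profiles of log2 CPM, each centred on its own mean, over the 9 libraries, which share depth and scaling. The 3 genes most like HMOX1 among 7594 were DLGAP1 (0.0634), ID3 (0.0646) and ZNF512B (0.0654), where the median candidate differed by 0.178. They were chosen for this likeness on the same libraries, so their own shifts are described and no p-values are given for them. ID3, an inhibitor of helix-loop-helix transcription factors, went from 152 ± 12.9 to 182 ± 11.4 and back to 148 ± 5.07 CPM (SD, n = 3). ZNF512B had means of 50.9 ± 3.91, 64.4 ± 4.75 and 54.9 ± 3.14 CPM, and DLGAP1 of 13.1 ± 1.23, 16.7 ± 1.51 and 14.1 ± 2.07 CPM, in controls, at 50 nM and at 250 nM. Among the other 9 genes of the NRF2 set, GCLC was nearest to HMOX1 (0.0989, rank 65), followed by TXNRD1 (0.108, rank 133), and AKR1B10 stood at rank 6666.

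AKR1B10 had nearer neighbours. GSTO1, the omega-class glutathione transferase, differed from it by 0.0215 and NQO1 by 0.0370, ranks 1 and 2 of 7594, ahead of ORC1 at 0.0454. GSTO1 gave 136, 115 and 131 CPM in controls, 110, 88.0 and 122 CPM at 50 nM, and 116, 107 and 94.8 CPM at 250 nM. Its means were 128 ± 11.0, 107 ± 17.2 and 106 ± 10.5 CPM (SD, n = 3). Like the genes nearest to HMOX1, it was chosen on these libraries, and its shifts are a description.

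**Figure D4:**
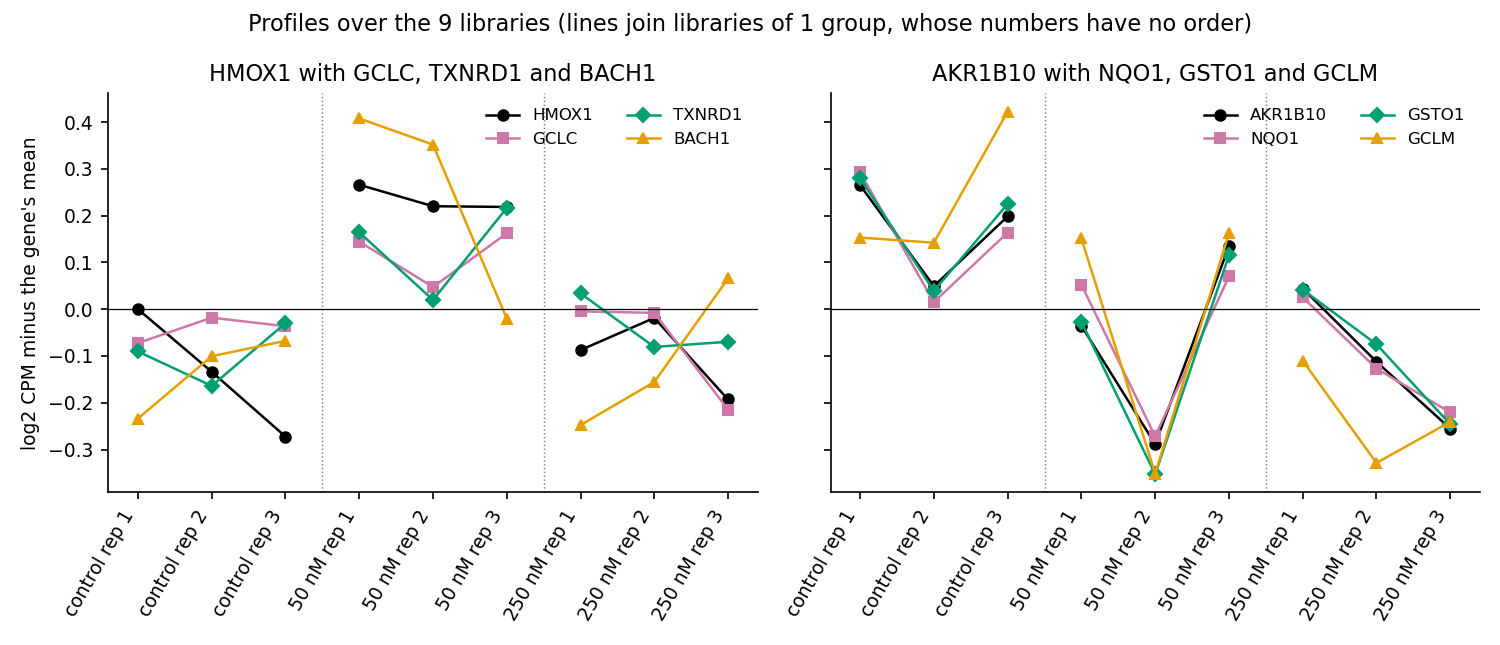
Log2 CPM minus each gene's own mean in the 9 libraries, for HMOX1 with GCLC, TXNRD1 and BACH1 (left) and AKR1B10 with NQO1, GSTO1 and GCLM (right). Lines join libraries of 1 group, whose numbers have no order; on the left the 50 nM libraries stand highest other than replicate 3 of BACH1 and replicate 2 of TXNRD1, and on the right AKR1B10, GSTO1 and NQO1 run close together.

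The rest of the pathway was covered by 6 lists, with 107 of 171 listed genes tested. At 50 nM, 3 of the 107 were lower and 0 higher by edgeR, and limma-voom called the same counts, with 3.25% of all genes called by edgeR. DESeq2 called 2 higher and 4 lower, with 5.70% of all genes called. Both counts are near these shares, so the genes named from the lists are given as single genes. An unadjusted p under 0.05 was reached by 13.1% of them, against 15.6% of all genes. At 250 nM against control 0 of 107 were called by edgeR and limma-voom and 1 by DESeq2 (SESN2, lower), and between the concentrations 0 and 1 (TXNIP, lower at 250 nM). Of all genes, edgeR called 0.308% and 0.325% in these comparisons and DESeq2 1.14% and 0.803%. The unadjusted shares of the listed genes were 8.41% and 7.48%, against 8.67% and 5.68% of all genes.

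The 14 tested partners and regulators of NRF2 had a median log2 fold change of 0.03 at 50 nM, and 1 fell. This was PALB2, a partner of BRCA2 in DNA repair that also binds KEAP1. PALB2 went from 10.7 ± 0.348 CPM in controls to 7.39 ± 0.759 at 50 nM and 8.34 ± 0.916 at 250 nM (SD, n = 3), a log2 fold change of -0.53 ± 0.11 at 50 nM (adjusted p = 0.0166, edgeR). Without control replicate 2, control replicate 3 or 50 nM replicate 2 its adjusted p was 0.0540, 0.0651 and 0.0827. The small Maf gene MAFF, singled out after its values were seen, had 0.38 ± 0.12 at 50 nM and 0.02 ± 0.12 at 250 nM against control (adjusted p of 0.128 and 0.985). The most abundant of the list were the autophagy receptor SQSTM1 at 132 FPKM and NFE2L1 at 79.0 FPKM.

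Of 17 tested thioredoxin, peroxiredoxin and superoxide genes, with a median of 0.00 at 50 nM, 1 fell. SESN3, a sestrin, went from 20.8 ± 3.00 to 13.9 ± 1.74 CPM at 50 nM and 17.4 ± 1.21 at 250 nM (SD, n = 3), a log2 fold change of -0.58 ± 0.11 (adjusted p = 0.00936, edgeR). Without 50 nM replicate 2 its adjusted p was 0.0529. PRDX1 led the list at 687 FPKM, followed by SOD1 at 97.5 FPKM. SESN2 and TXNIP, which DESeq2 called, were singled out after their values were seen. SESN2 had -0.29 ± 0.08 at both concentrations against control (adjusted p of 0.0525 and 0.169, edgeR). TXNIP, which binds and inhibits thioredoxin, had 0.29 ± 0.09 at 50 nM and -0.10 ± 0.09 at 250 nM (adjusted p of 0.0927 and 0.853).

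Of 12 tested genes of NADPH supply, 1 fell at 50 nM, and the median was -0.04. NADK2, the mitochondrial NAD kinase, went from 16.6 ± 0.903 to 13.0 ± 0.524 CPM and stood at 15.2 ± 1.07 at 250 nM (SD, n = 3). The log2 fold change of -0.35 ± 0.08 had an adjusted p of 0.0333 (edgeR), which was kept in 2 of the 9 refits that left out a library and reached 0.114 without control replicate 2. TKT averaged 293 FPKM and PGD 79.3 FPKM, both enzymes of the pentose phosphate pathway.

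The other lists had 0 genes called at 50 nM by edgeR. Their medians were -0.00 over 20 genes of glutathione synthesis and use, 0.01 over 24 genes of heme and iron handling, and 0.08 over 20 genes of carbonyl and xenobiotic metabolism. An unadjusted p under 0.05 was reached by 3, 2 and 2 of them, and DESeq2 called 0, 1 and 0, where 15.6% and 5.70% of all genes were reached and called. The gene called by DESeq2 was the iron transporter SLC11A2, singled out after its values were seen, with 0.22 ± 0.06 at 50 nM (adjusted p = 0.0609 by edgeR). These lists held abundant transcripts: FTL, the ferritin light chain, averaged 2009 FPKM, LRP1 361, GSTP1 457, GPX1 326, UGDH 122 and AKR1B1 51.6 FPKM.

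The summed fibroblast markers were higher in the treated libraries, from 3171 to 3251 FPKM in controls to 3368 to 3580 at 50 nM and 3432 to 3556 at 250 nM, with 7 of 8 listed genes in the table and none of them at 0. COL1A1 (2076 FPKM on average) and COL3A1 (1210 FPKM) made up most of that sum. COL1A1 rose by 0.18 ± 0.04 at 50 nM and by 0.22 ± 0.04 at 250 nM (adjusted p of 0.0260 and 0.0401, edgeR). These calls of COL1A1 were not followed through the alternative settings. COL3A1 had 0.15 ± 0.05 and 0.11 ± 0.05 (adjusted p of 0.113 and 0.467). The other 5 markers did not pass in either comparison, and their log2 fold changes at 50 nM ran from -0.03 for PDGFRA and -0.01 for LUM to 0.18 for FAP. The part of these markers in the values of the 10 genes was not tested.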

How the data were processed

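The 9 mRNA-seq libraries came with 2 tables from the authors, 1 of estimated counts and 1 of deposited FPKM, by gene. Trim Galore, TopHat2 2.1.1, Cufflinks and Cuffdiff are named by the submitters' processing notes. The genome build, the annotation, the strand setting and the tool behind the counts are not given here. Overlapping genes and close copies could therefore share reads. Per the labels' protocols, RNA was isolated with TRIzol, and a small RNA kit is named for the libraries. The deposited estimated counts are whole numbers, and 40.4% of values from 1 to 16 are 4, 8, 12 or 16, so about 4 units were taken as 1 fragment.

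The count-to-FPKM ratio, relative between libraries, varied by at most 0.0385% over 8323 genes. Libraries of a group differed by 3.00 to 11.1 in chi-square per degree of freedom, so none were merged. The tables held 0 columns from other samples. All 10 symbols matched RefSeq (assembly mOryCun1.1), used for names only.

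Group differences were fitted on the counts by edgeR 4.0.16 under R 4.3.3 (quasi-likelihood, TMM factors, filterByExpr with a minimum count of 10, Benjamini-Hochberg over 12324 genes, threshold 0.05). All 9 libraries entered 1 fit, with a common biological coefficient of variation of 8.92%. TMM factors were 1.01 to 1.03 in controls, 0.972 to 0.997 at 50 nM and 0.987 to 1.00 at 250 nM. Scripts were tested on simulated data. Alternatives were DESeq2 1.42.0, limma 3.58.1 (voom, and log2 of FPKM with a pseudocount of 1 or 0.1), other scaling factors and filters, counts divided by 4, a replicate block, only the groups compared, and each library left out in turn.

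The 10 genes and all lists were chosen with earlier results of these data known. Beyond the 10, genes were named if they passed in a list (at most 6), had the 2 highest FPKM of a list, or were the 3 most like HMOX1 or AKR1B10 with a mean of at least 5 CPM (profiles with a prior count of 2). Intervals of log2 fold changes were formed from the SE of edgeR's quasi-likelihood fit. They therefore include the spread between these libraries, which may be technical.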

Additional observations from a re-analysis of the deposited data

How the results depend on the processing

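With 3 libraries a group, small shifts near the threshold were the limit, and the cause of the changes below was not tested. At 50 nM against control, where HMOX1 alone was called, DESeq2 called 3 of the 10 genes (BACH1, HMOX1 and TXNRD1). No filter, a stricter filter, counts divided by 4 and a replicate block each called 2, and limma on log2(FPKM + 1), with or without the filter, and on log2(FPKM + 0.1) called 0. Leaving out each library gave 0 to 2, and without 50 nM replicate 2 the called gene was TXNRD1. At 250 nM against control, 0 were called in 12 alternatives and 9 refits without a library. Between the concentrations DESeq2 called 1, and leaving out a library gave 0 to 1 (BACH1, -0.49, without 50 nM replicate 3). For any difference among the groups, where 1 was called, DESeq2 called 3, no filter 2 and the limma fits to FPKM 0. Leaving out a library gave 0 to 1, with 1 called in 3 of 9 refits.

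Estimates near 0 changed sign. At 250 nM against control, HMOX1 was -0.00401, -0.00411 and -0.00401 in the limma fits to FPKM with pseudocounts of 1, 0.1 and 1 without the filter (BACH1 -0.0165, -0.0183 and -0.0165). These fits were made without TMM factors, and the median over all genes was itself -0.0334, -0.0414 and -0.0204 in them. Leaving out a library gave -0.176 to 0.0199 for NFE2L2 and -0.00434 to 0.23 for SRXN1 at 50 nM against control. At 250 nM against control the ranges were -0.166 to 0.0300 for NFE2L2, -0.0691 to 0.0929 for BACH1, -0.0337 to 0.103 for HMOX1, -0.0658 to 0.0357 for GCLC, -0.0114 to 0.20 for DLGAP1 and -0.0786 to 0.0319 for ID3. Between the concentrations they were -0.0448 to 0.0540 for NFE2L2, -0.0317 to 0.0427 for KEAP1 and -0.15 to 0.0541 for AKR1B10.

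Of all genes at 50 nM against control, edgeR called 401 (191 higher, 210 lower), DESeq2 702, limma on log2(FPKM + 1) 85 higher and 266 lower, limma on log2(FPKM + 0.1) 253 (67 higher, 186 lower), and only the groups compared 244. Leaving out a library gave 187 to 564. At 250 nM against control 38 became 140 by DESeq2, 4 in each limma fit to FPKM and 5 to 56 without a library. Between the concentrations 40 became 99 by DESeq2, 6 on log2(FPKM + 0.1), 14 on log2(FPKM + 1) without the filter and 21 to 50 without a library. For any difference 229 became 553 by DESeq2, 353 without the filter, 76 on log2(FPKM + 0.1) and 122 to 339 without a library.

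The replicate numbers showed little sign of a shared effect across groups. Over 9 pairs with the same number, deviations from the group means correlated by -0.0319 to 0.0359. Of 9 libraries, 3 were nearest to their own number. These values cannot show whether libraries of the same number were handled together. With the replicate block, 492, 43 and 42 genes were called in the 3 comparisons and 272 for any difference, and 2 of the 10 genes at 50 nM against control (HMOX1 and TXNRD1).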
